A study of Mus musculus with 12 samples.

Results

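The genes described here are 10 regulators and effectors of fat-cell differentiation and lipid storage: Pparg, Cebpa, Cebpb, Cebpd, Zfp423, Klf15, Fabp4, Plin2, Lpl and Pnpla2. These genes were chosen by symbol and not by their values, though with earlier results of these data known. They are 10 of the 48795 genes in the deposited tables. Total RNA depleted of ribosomal RNA was sequenced from the mouse fibroblast line NIH3T3 (wild type, named Parental in the labels) at passages 6, 7 and 8. It was also sequenced from 3 clones derived from it (F5, G5 and H7), each with the genotype AEBP1 knockout, at passages 7, 8 and 9. All 4 groups were cultured fibroblasts grown with fetal bovine serum in DMEM/F12, and no treatment that induces fat cells is given in the labels. Each clone is a clonal derivative and the parental line is an uncloned population, so the effects of cloning and of the knockout cannot be told apart. Whether the passages were separate cultures is not stated, so the p-values reflect only how far these samples spread, which may be technical.

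Fat cells form from fibroblast-like precursors through a relay of transcription factors. C/EBPβ and C/EBPδ act early and switch on PPARγ and C/EBPα, which maintain each other and activate the genes of the mature fat cell. Those genes handle lipid: Fabp4 carries fatty acids in the cytosol, perilipins coat the lipid droplet, lipoprotein lipase releases fatty acids from circulating triglyceride, and the lipase encoded by Pnpla2 takes the first step in breaking down stored triglyceride. AEBP1 was originally described as a protein that binds a regulatory element of the Fabp4 gene and lowers its transcription, and the question put to these 10 genes is whether any of them moved in the knockout clones.

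Across the libraries, the early factors Cebpb and Cebpd were expressed in every library, whereas Pparg, Cebpa and Fabp4, the core of the later program, were at or near 0 counts in the parental line and in all 3 clones. The lipid-droplet coat gene Plin2 rose in each clone, by 1.73-fold in F5, 1.60-fold in G5 and 1.59-fold in H7. The triglyceride lipase gene Pnpla2 rose by 1.26-fold in the mean of the clones. In F5 alone Pnpla2 was not called. For the mean, the call was lost without the parental library of passage 7 and without the second passage of every group. Cebpb, Cebpd and Lpl did not pass the test, and each was highest in the second passage of all 4 groups, as were 13.2% of all tested genes. With the order of passages as a term in the fit, Cebpb was called lower in each clone and Cebpd in F5 and G5. That fit called 15% of all genes lower in F5, 13.8% in G5 and 16.7% in H7, beside 7.37%, 6.56% and 9.92% without that term.

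Libraries held 22088695 to 31329735 counts after rounding. Values are counts per 1000000 counts (CPM) after edgeR's TMM normalization unless TPM is named. A gene was called when the adjusted p of edgeR's quasi-likelihood F-test, over the 14704 genes that passed the filter on low counts, was under 0.05; every adjusted p below is from that test unless another tool is named. Of the 10 genes, 5 passed the filter (Cebpb, Cebpd, Plin2, Lpl and Pnpla2). The comparisons of the clones with the parental line share the same 3 parental libraries. The second library of each group (passage 7 of the parental line and passage 8 of each clone) stood apart for several of these genes. Some results that rest on it are given with and without it, while calls of genes named after their values were seen are given only with it. All 8 fibroblast markers (Col1a1, Col1a2, Col3a1, Pdgfra, Pdgfrb, Thy1, Vim and S100a4) were at 1 CPM or more on average, and their summed level lay between 11960 and 18730 CPM. None of the 6 adipocyte markers reached 1 CPM on average over the 12 libraries, and their summed level was 0.154 to 2.53 CPM. Within the parental line Retn averaged 1.68 CPM. Cidec, Cfd and Lep were at 0 in all 12 libraries. The other lists reached 7.97 CPM for 6 macrophage markers (Adgre1 at 0 throughout), 1.19 CPM for 6 endothelial markers (Kdr and Tie1 at 0) and 1.03 CPM for 5 epithelial markers (Epcam at 0). The epithelial sum was higher in H7, at 0.626 to 1.03 CPM against at most 0.307 in any other library, and its part in the H7 results was not tested.

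Aebp1 itself, the targeted gene (chr11:5861947-5872088, plus strand, GRCm38), checked the labels. It was at 613, 467 and 579 CPM in the parental libraries and between 122.8 and 214 CPM in the 9 clone libraries. The groups did not overlap, and the log2 fold change was −1.84 for the mean of the clones (SE 0.09, adjusted p = 1.69e-06). Transcript remained in all 9 clone libraries, and whether it can still be translated into protein was not measured.

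Pparg (chr6:115360951-115490399, plus strand) encodes the nuclear receptor PPARγ, which is required for fat cells to form. It had 15 counts in all 12 libraries together and at most 3 in any library. The parental libraries held 2, 2 and 0 counts, F5 held 2, 1 and 2, G5 held 3, 0 and 2, and H7 held 0, 0 and 1. No group stood out. The clones were at 0.817 times the parental level with an exact 95% counting interval of 0.242 to 3.52, so a change of several fold in either direction was not detectable at this depth. In TPM the highest library reached 0.141.

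Cebpa (chr7:35119293-35121928, plus strand), which encodes C/EBPα, the partner of PPARγ in the late program, had 0 counts in all 12 libraries. The limit that 3 counts allow over the 12 libraries is 0.00976 CPM. Zfp423 (chr8:87661810-87959595, minus strand), a zinc-finger factor that marks committed fat-cell precursors, had 1 count in each of the parental libraries of passages 6 and 7 and 0 in the other 10 libraries. Both groups were under the limit of 3 counts, and no fold is given.

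Klf15 (chr6:90462576-90475238, plus strand), a Krüppel-like factor of later differentiation that responds to glucocorticoid, had 48 counts in all. The parental libraries held 0, 2 and 2 counts, F5 held 8, 5 and 5, G5 held 2, 8 and 1, and H7 held 7, 7 and 1. The summed level was 3.27 times the parental one over the 3 clones (exact 95% interval 1.19 to 12.5), 3.78 times in F5 (1.25 to 15.4), 2.57 times in G5 (0.761 to 11.1) and 3.40 times in H7 (1.08 to 14.1). These intervals cover counting error only. The parental libraries overlapped G5 and H7 in range and lay below F5. In edgeR without the filter on low counts, over 23929 genes, Klf15 was not called (log2 fold change 1.64, SE 0.87, adjusted p = 0.292).

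Fabp4 (chr3:10204088-10208576, minus strand), the fatty acid binding protein whose regulatory element AEBP1 was described to bind, had 47 counts in all and at most 9 in a library. Parental libraries held 0, 5 and 3 counts, F5 held 1, 9 and 5, G5 held 1, 3 and 3, and H7 held 1, 9 and 7. The groups overlapped, and the first passage of each group was the lowest. Relative to the parental line, the summed level was 1.58 times in F5 (0.627 to 4.29), 0.817 times in G5 (0.252 to 2.58), 1.93 times in H7 (0.788 to 5.16) and 1.45 times over the 3 clones (0.668 to 3.59). Without the filter edgeR gave 0.45 on the log2 scale (SE 0.80, adjusted p = 0.86). The same test did not call Pparg (adjusted p = 0.868) or Zfp423 (adjusted p = 0.262) either. In bulk RNA, fewer cells that express a gene and less RNA per cell cannot be told apart, and this holds for every gene here.

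**Figure D1:**
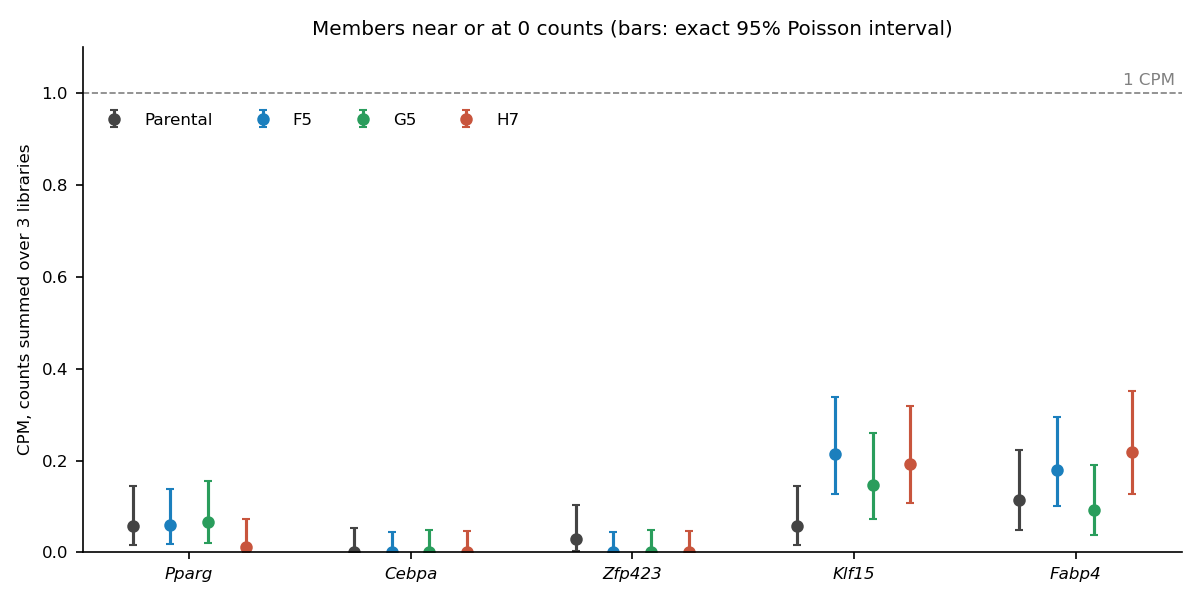
Level of the 5 genes at or near 0 counts, in CPM of the counts summed over the 3 libraries of each group; points are the summed level and bars the exact 95% Poisson interval. All 20 values lie under the dashed line at 1 CPM, and the intervals of the clones overlap those of the parental line for each gene.

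The promoter of Pparg is shown for its matches to the C/EBP motif, because the genes of 2 C/EBP factors were abundant while Pparg was near 0. RefSeq's table of starts on GRCm38.p6 was matched for 7 of the 10 genes, all but Cebpd, Fabp4 and Lpl. The window below is the 250 bases before the downstream Pparg start, at chr6:115421816-115422065 on the plus strand. It was chosen after the search: the table holds 3 windows for Pparg, and the other 2, before upstream starts, held no match to the motif. Capitals mark matches to TTGCNNAA, searched on both strands, which lie 215 to 208 bases before the start (plus strand) and 16 to 9 bases before it (minus strand). Of 32851 windows of 250 bases before all starts in the table, 9.56% held this motif. A Zfp423 window held it as well, 131 to 124 bases before the start. A match is a description of the letters and not a measured site.
Pparg: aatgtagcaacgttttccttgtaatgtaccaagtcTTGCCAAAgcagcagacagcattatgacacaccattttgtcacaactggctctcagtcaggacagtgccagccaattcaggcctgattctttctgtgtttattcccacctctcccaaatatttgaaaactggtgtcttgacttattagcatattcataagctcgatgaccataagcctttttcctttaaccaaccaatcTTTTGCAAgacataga

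Cebpb (chr2:167688915-167690418, plus strand) encodes C/EBPβ, an early factor that also answers inflammatory and stress signals. It was at 142, 230.5 and 174 CPM in the parental libraries of passages 6, 7 and 8. At passages 7, 8 and 9 it was at 120.3, 159.9 and 109.8 CPM in F5, at 107, 193 and 94.3 in G5, and at 123, 169 and 132 in H7. The clones overlapped the parental line, and the middle library was the highest in every group. The log2 fold change for the mean of the clones was −0.44 (SE 0.21, adjusted p = 0.178), or 0.736-fold with a 95% interval of 0.532 to 1.02. It was −0.49 in F5, −0.47 in G5 and −0.37 in H7, none of them called (adjusted p = 0.263, 0.285 and 0.388). Leaving out G5 passage 8 gave −0.57 and a call for the mean (adjusted p = 0.0315), and −0.86 and a call in G5 (adjusted p = 0.0402). Leaving out the parental library of passage 7 gave −0.24 for the mean (adjusted p = 0.544). In each clone every library lay below the parental library of the same place in the order of passages. With that order as a term in the fit, an alternative in which 17.8% of all genes were called lower for the mean, Cebpb was called for the mean (−0.45, adjusted p = 0.00428), in F5 (−0.48, adjusted p = 0.0117, with 15% of all genes called lower), in G5 (−0.51, adjusted p = 0.00955, with 13.8%) and in H7 (−0.35, adjusted p = 0.038, with 16.7%). The labels do not say that libraries of the same order were handled together.

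Cebpd (chr16:15887286-15891031, plus strand) encodes C/EBPδ, the other early factor. Parental libraries were at 51.4, 126.8 and 71.1 CPM. F5 was at 13.9, 54.5 and 25.8 CPM, G5 at 17.7, 76.4 and 30.8, and H7 at 49.5, 111 and 88.1. F5 and G5 had lower means than the parental line (31.4 ± 20.9 and 41.6 ± 30.8 against 83.1 ± 39.1 CPM, SD, n = 3 each), H7 lay at 82.9 ± 31.1, and the ranges overlapped in each case. The log2 fold change was −1.40 in F5 (SE 0.59, adjusted p = 0.145), −1.004 in G5 (SE 0.59, adjusted p = 0.30) and −0.00 in H7 (adjusted p = 0.997). Averaged over the clones it was −0.80 (SE 0.46, adjusted p = 0.253), and the 95% interval of the fold, 0.286 to 1.15, includes no change. Leaving out the parental library of passage 7 gave −0.36 for the mean, −0.96 in F5 and −0.57 in G5, and leaving out G5 passage 8 gave −1.79 in G5, none of them called. In F5 and G5 every library lay below the parental library of the same order. With the order of passages as a term in the fit, Cebpd was called lower for the mean (−0.87, adjusted p = 7.99e-04), in F5 (−1.50, adjusted p = 1.77e-04) and in G5 (−1.13, adjusted p = 0.00102), and not in H7 (0.03, adjusted p = 0.903). Of all genes, that fit called 17.8% lower for the mean, 15% in F5 and 13.8% in G5. H7 on chromosome 16, where Cebpd lies, had a median log2 fold change of 0.22 over 425 expressed genes, and the part of such chromosome-wide shifts in the clone values was not tested.

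Plin2 (chr4:86648386-86670060, minus strand) encodes perilipin 2, a coat protein of lipid droplets made in many cell types. The parental libraries were at 29.3, 32.4 and 30.3 CPM. F5 was at 51.3, 57.8 and 50.2 CPM, G5 at 46.7, 53.5 and 47.1, and H7 at 52.4, 49.4 and 44.4. Every clone library lay above every parental library. The log2 fold change was 0.71 for the mean of the clones (SE 0.08, adjusted p = 1.38e-04), a 1.64-fold difference with a 95% interval of 1.46 to 1.84. It was 0.79 in F5 (adjusted p = 3.34e-04), 0.68 in G5 (adjusted p = 7.77e-04) and 0.67 in H7 (adjusted p = 4.69e-04). The call was made in all 22 alternatives for the mean. The median log2 fold change of chromosome 4 was between −0.00 and 0.02 in the 3 clones.

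The 250 bases before the Plin2 start (chr4:86670060-86670309, minus strand, RefSeq on GRCm38.p6) are shown because Plin2 was the gene of the 10 called in all 3 clones. Capitals mark the match, 218 to 213 bases before the start, to the core hexamer of nuclear receptors, AGGTCA, which lies on the strand opposite to the gene. That hexamer was found in 14% of the 32851 windows, searched on both strands. It also stood before genes at or near 0 counts, in the Pparg windows from 115360894 and 115362099 and the Zfp423 window from 87804440. The window of Pnpla2, the other gene called for the mean, held none. The DR1 motif, a direct repeat of the hexamer bound by PPARγ with RXR, was found in 0.0335% of windows and in none of those before the 7 matched genes; the letters of DR1 contain the hexamer, so the searches overlap. No match says only that these letters are not in the windows.
Plin2: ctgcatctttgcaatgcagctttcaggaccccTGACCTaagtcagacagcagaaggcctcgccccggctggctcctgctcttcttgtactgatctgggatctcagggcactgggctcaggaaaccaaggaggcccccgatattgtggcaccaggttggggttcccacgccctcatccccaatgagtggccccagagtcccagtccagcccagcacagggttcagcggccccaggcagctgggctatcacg

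Pnpla2 (chr7:141455198-141460743, plus strand) encodes adipose triglyceride lipase. The parental libraries were at 9.08, 8.17 and 9.31 CPM, F5 at 11.0, 11.1 and 10.6, G5 at 10.8, 12.1 and 11.2, and H7 at 11.5, 12.01 and 10.2. All clone libraries lay above all parental libraries, by a smaller margin than for Plin2. Averaged over the clones, Pnpla2 rose by 0.33 on the log2 scale (SE 0.08, adjusted p = 0.0143), or 1.26-fold with a 95% interval of 1.12 to 1.42. G5 (0.36, adjusted p = 0.0318) and H7 (0.34, adjusted p = 0.0281) were called, and F5 (0.30, adjusted p = 0.0576) was not. The median log2 fold change of chromosome 7, where Pnpla2 lies, was −0.20 in F5, −0.08 in G5 and −0.03 in H7. Its part in the Pnpla2 values was not tested. No pair of clones was called different, and F5 minus H7 was −0.04 with a 95% interval of −0.25 to 0.17. Without the parental library of passage 7 the mean was 0.28 and not called (adjusted p = 0.0575), nor were G5 (adjusted p = 0.0785) and H7 (adjusted p = 0.0735). Leaving out any of the 3 G5 libraries ended the G5 call (adjusted p = 0.0524 to 0.112), and leaving out H7 passage 7 or 8 ended the H7 call (adjusted p = 0.0887 and 0.109).

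Lpl (chr8:68880491-68907448, plus strand) encodes lipoprotein lipase. The parental libraries were at 13.8, 53.4 and 15.1 CPM. F5 was at 17.2, 31.1 and 19.9 CPM, G5 at 13.4, 21.8 and 14.8, and H7 at 28.0, 34.4 and 28.5. The parental library of passage 7 was the highest of all 12, and the other parental libraries were among the lowest. No difference was called: the log2 fold change for the mean was −0.29 (SE 0.36, adjusted p = 0.625), with −0.27 in F5, −0.73 in G5 and 0.14 in H7 (adjusted p = 0.74, 0.334 and 0.869). Without the parental library of passage 7 the mean was 0.64 and H7 was called higher at 1.07 (adjusted p = 0.0159). All 3 H7 libraries lay above all 3 G5 libraries (G5 minus H7, −0.87, adjusted p = 0.237), and that difference was called without the parental library of passage 7 (adjusted p = 0.017), with the order of passages as a term in the fit (−0.90, adjusted p = 0.0251) and without the second passages (−1.01, adjusted p = 5.56e-04).

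Seen against all genes, 2 of the 5 genes tested were called higher in the mean of the clones and none lower, where 8.55% of all tested genes were called higher and 10.5% lower. At an unadjusted p under 0.05 edgeR had 0 lower for the mean as well, and DESeq2 called 0 lower in any clone. In F5, 1 of the 5 was called higher (Plin2) and none lower, against 6.88% and 7.37% of all genes, and Cebpd was lower at an unadjusted p = 0.0378. In G5, Plin2 and Pnpla2 were called higher and none lower, against 6.54% and 6.56%. In H7 it was again Plin2 and Pnpla2, against 9.64% and 9.92%. Plin2 was called higher in each of the 3 clones, as were 2.54% of all genes. The median log2 fold change of the 5 genes was −0.29 for the mean of the clones, beside −0.02 for all genes. With 5 genes this median is the value of Lpl, which was 0.64 without the parental library of passage 7. On deposited TPM the balance of calls over all genes differed: 44.9% of the calls for the mean were higher by edgeR, 58.3% by limma on log2(TPM + 1) and 58.2% on log2(TPM + 0.1), and in G5 49.9%, 66.8% and 66.3%. Plin2 and Pnpla2 kept their direction in both limma fits.

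**Figure D2:**
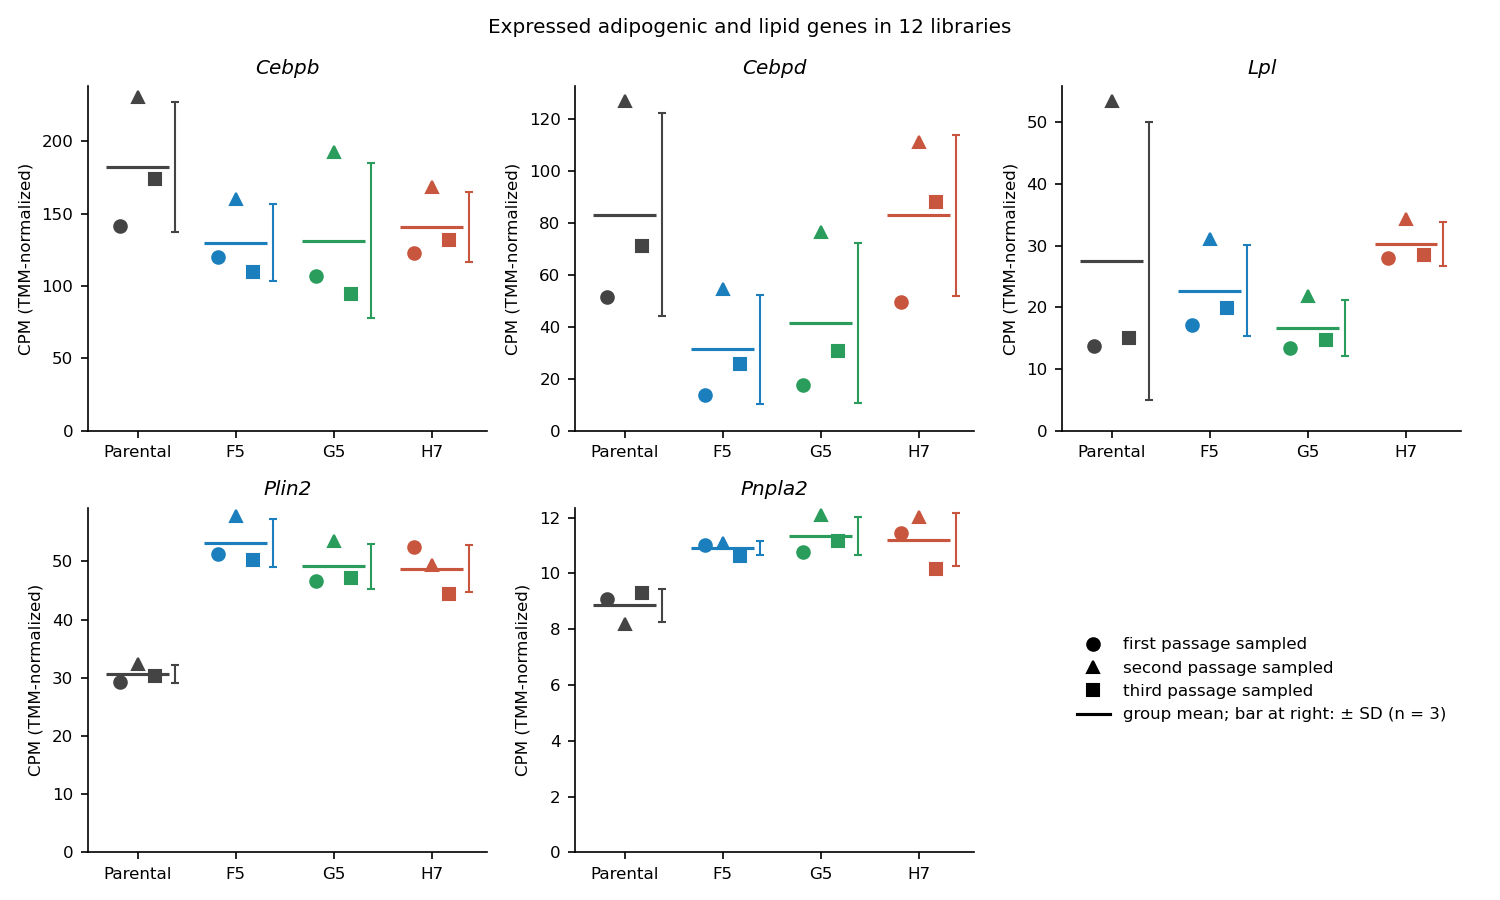
CPM of the 5 expressed genes in each library, with circles, triangles and squares for the passages in order (the triangle is the second), horizontal lines for the group mean and bars for ± SD (n = 3). The clone libraries lie above the parental ones for Plin2 and Pnpla2, and the triangles are the highest point of every group for Cebpb, Cebpd and Lpl.

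**Figure D3:**
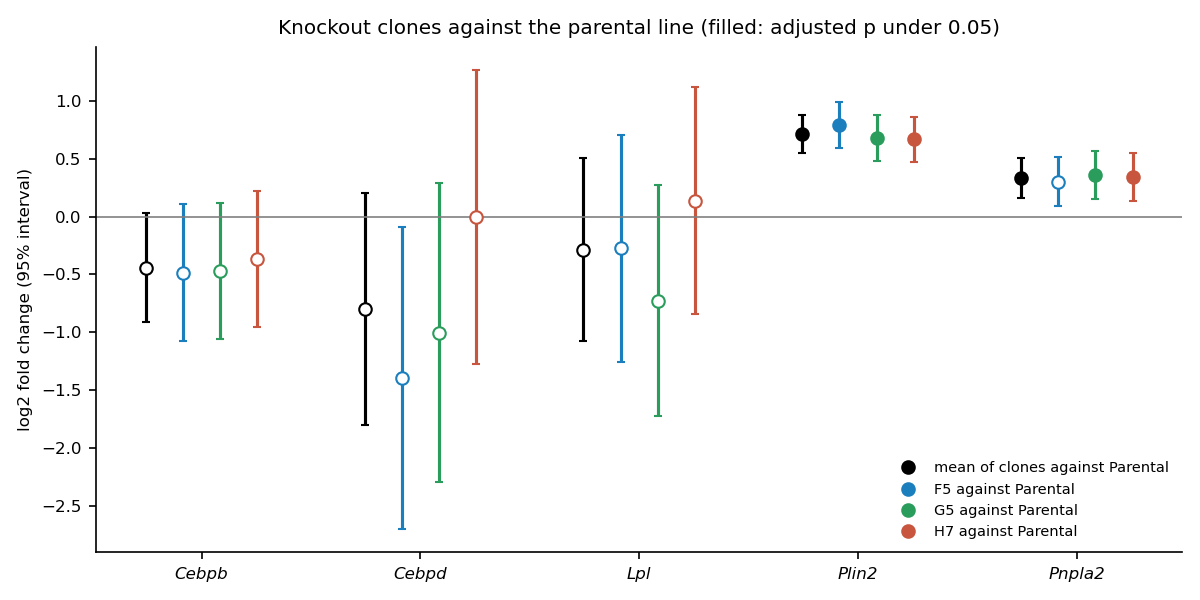
Log2 fold change of the 5 expressed genes against the parental line, for the mean of the clones and each clone, with 95% intervals; filled points are called (adjusted p under 0.05, edgeR). The intervals of Plin2 run above 0 in every comparison, while those of Cebpb and Lpl include 0 throughout.

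Per transcript length, Cebpb was the most abundant of the 10 genes in the parental line, at 218 ± 59 TPM (SD, n = 3). Cebpd followed at 40.3 ± 19.9 TPM and Plin2 at 31.5 ± 2.27 TPM, which overlapped, then Lpl at 14.3 ± 11.9 and Pnpla2 at 7.93 ± 0.241 TPM, which also overlapped. In all 3 clones the means of Cebpd and Plin2 stood in the opposite order. They were 15.4 ± 10.3 and 54.8 ± 5 TPM in F5, 20.9 ± 14.8 and 51.3 ± 3.64 TPM in G5, and 39.7 ± 14.6 and 49.1 ± 5.21 TPM in H7, where the libraries overlapped. The remaining 5 genes were each under 1 TPM in all 12 libraries, with the highest value, 0.604 TPM, for Fabp4 in H7 at passage 8.

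The early factors and Lpl moved together with the passage sampled. Cebpb, Cebpd and Lpl were each highest in the second passage of all 4 groups, as were 13.2% of all tested genes. For Cebpd the second passage was at 2.07 times the mean of the other passages in the parental line, 2.75 times in F5, 3.15 times in G5 and 1.61 times in H7. For Cebpb the ratios were 1.46, 1.39, 1.91 and 1.33. For Lpl they were 3.70, 1.68, 1.54 and 1.22. Plin2 was highest there in the parental line, F5 and G5 with ratios of 1.09 to 1.14, and in H7 its ratio was 1.02. Pnpla2 was lowest there in the parental line (0.888) and highest in each clone (1.02 to 1.11). The labels give no feature of these libraries other than the passage, and the cause was not tested.

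Without the second passage of every group, an alternative chosen after the data were seen, the values of these genes moved. Over all genes, 6.98% were then called higher and 7.84% lower for the mean, 6.43% lower in F5, 5.6% lower in G5 and 9.9% higher in H7. Cebpb was called lower for the mean of the clones (−0.47, adjusted p = 0.0109), in F5 (−0.46, adjusted p = 0.0333) and in G5 (−0.65, adjusted p = 0.00996). Cebpd was called lower in F5 (−1.63, adjusted p = 0.0321), and Lpl turned to a called increase of 0.43 for the mean (adjusted p = 0.0142) and of 0.97 in H7 (adjusted p = 7.74e-04). Plin2 remained called, and Pnpla2 was no longer called for the mean (0.24, adjusted p = 0.106).

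As a description over the 12 libraries, the log2 CPM of Cebpb and Cebpd correlated at r = 0.79, and at 0.83 with group means removed. Cebpd and Lpl correlated at 0.68 and 0.74, and Cebpb and Lpl at 0.62 and 0.75. Plin2 and Pnpla2 correlated at 0.88 over the libraries and at 0.45 within groups. The points share the libraries and the second-passage pattern. Genes of at least 1 CPM most like Cebpd over the 12 libraries were Hdac9, a class II histone deacetylase (r = 0.984), Thy1, a surface glycoprotein of fibroblasts (r = 0.972), and Cemip, a hyaluronan-degrading protein (r = 0.971). Hdac9 went from 4.14 CPM in F5 at passage 7 to 19.5 CPM in the parental line at passage 7, the libraries where Cebpd was also lowest and highest. Such neighbours are not given for Pparg and Fabp4, with at most 3 and 9 counts in a library.

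Regulators that act on the same program were measured from a list chosen with earlier results of these data known. Of 24 genes known to promote fat-cell formation, 22 were tested, and in the mean of the clones 1 rose and 9 fell, with a median log2 fold change of −0.21 beside −0.02 for all genes. Of all tested genes, 8.55% were called higher and 10.5% lower. Prdm16, which specifies brown fat, fell from 3.31, 2.92 and 4.35 CPM in the parental libraries to between 0.279 and 0.785 CPM in the clones, or −2.88 on the log2 scale (SE 0.20, adjusted p = 1.21e-05). Rxra, the receptor that pairs with PPARγ, fell from 99.3 to 107 CPM in the parental libraries to 73.1 to 78.8 CPM in the clones (−0.43, SE 0.05, adjusted p = 1.38e-04). Tle3, a co-regulator that favours PPARγ targets, fell by 0.44 on the log2 scale (SE 0.06, adjusted p = 4.53e-04). For all 3 genes every clone library lay below every parental one, and each was called in each clone. The gene that rose, named after its values were seen, was Klf4 (0.74, adjusted p = 0.0313), an early zinc-finger factor upstream of Cebpb. By clone, 5 of the 22 fell in F5 and in G5 and none rose, and in H7 4 fell and 1 rose. Of all genes, 7.37% fell and 6.88% rose in F5, 6.56% and 6.54% in G5, and 9.92% and 9.64% in H7.

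Among 20 genes known to oppose fat-cell formation, all were tested, and 3 rose and 5 fell (median −0.19), beside 8.55% higher and 10.5% lower over all genes. Nr2f1, an orphan nuclear receptor, fell from 97.2, 89.3 and 104.8 CPM to 44.7 to 50.2 in F5, 44.3 to 51.9 in G5 and 27.0 to 35.1 in H7 (mean −1.21, SE 0.08, adjusted p = 7.30e-06). Gata2, a zinc-finger factor of precursors, fell from 40.2 to 43.5 CPM to between 21.1 and 28.0 CPM (−0.77, SE 0.06, adjusted p = 2.59e-05). Trib3, a pseudokinase of the stress response, rose from 19.9, 12.2 and 12.4 CPM to between 47.7 and 83.7 CPM in the clones (2.13, SE 0.20, adjusted p = 6.51e-05). The others called, named after their values were seen, were Ddit3, a C/EBP-family factor that blocks the other C/EBPs (0.92, adjusted p = 0.00124), and Gata3 (1.84, adjusted p = 0.0194) among the risen, and Dlk1, the preadipocyte surface protein Pref-1 (−0.95, adjusted p = 0.00125), Nr2f2 (−0.47, adjusted p = 3.65e-04) and Sirt1 (−0.60, adjusted p = 0.00131) among the fallen. By clone, 2 rose and 5 fell in F5, 3 and 4 in G5, and 2 and 5 in H7. The shares of all genes that rose and fell were 6.88% and 7.37% in F5, 6.54% and 6.56% in G5, and 9.64% and 9.92% in H7.

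Of 3 other genes listed by their Cebp symbol (Cebpe, Cebpg and Cebpz), 2 were tested. This is not a count of the C/EBP family, and Ddit3 is counted with the opposing regulators. Cebpg, which pairs with other C/EBPs, rose by 0.31 in the mean of the clones (SE 0.06, adjusted p = 0.00663). It was called in H7 (0.53, adjusted p = 7.31e-04) and not in F5 or G5, and the mean was not called with the 9 knockout libraries as 1 group (adjusted p = 0.0974) or without the second passage of every group (0.28, adjusted p = 0.0542). Cebpz was at 0.19 and not called (adjusted p = 0.0764).

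Markers of mature fat cells were low. Of 14, 10 had counts and 3 were tested. Plin4, a lipid-droplet coat protein of white fat, was at 0.716, 0.553 and 0.967 CPM in the parental libraries, at 2.87, 8.85 and 5.59 CPM in F5, at 3.47, 7.53 and 6.61 CPM in G5, and at 1.04, 0.773 and 1.18 CPM in H7. It rose in F5 (2.96, SE 0.45, adjusted p = 0.00178) and G5 (2.97, SE 0.45, adjusted p = 0.00174), overlapped the parental line in H7, and the mean was 2.12 (adjusted p = 0.00462). Retn, which encodes resistin, fell by 1.74 (SE 0.51, adjusted p = 0.0359) with overlapping libraries, a call made in only 9 of 21 alternatives. Gpd1, an enzyme that supplies glycerol phosphate, was at −0.20 and not called (adjusted p = 0.71).

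Among 19 genes of triglyceride synthesis and the droplet coat, 18 were tested, 4 rose and 2 fell (median 0.01), beside the same 8.55% and 10.5% of all genes. Agpat2, an enzyme that makes phosphatidic acid on the way to triglyceride, was at 2.64, 2.17 and 2.77 CPM in the parental libraries, 0.498, 0.753 and 0.347 in F5, 0.0707, 0 and 0.159 in G5, and 4.82, 4.35 and 3.81 in H7. It fell in F5 (−2.21, adjusted p = 0.00211) and G5 (−4.91, adjusted p = 1.14e-04), while all H7 libraries lay above the parental ones without a call against them. Lpin3, a phosphatidate phosphatase, rose from 6.13, 6.08 and 6.94 CPM to 12.03 to 15.1 in F5 and 10.4 to 12.1 in G5 and was at 4.93 to 5.34 in H7. Cav1, the main protein of caveolae, rose in each clone (mean 0.41, SE 0.07, adjusted p = 0.00266). It lies on chromosome 6, whose median log2 fold change was 0.07 in F5, 0.09 in G5 and −0.22 in H7. Those named after their values were seen were Fitm2 (0.47, adjusted p = 0.005), which partitions triglyceride into droplets, Rab18 (0.19, adjusted p = 0.0433), a small GTPase of droplets, and Bscl2 (−0.22, adjusted p = 0.0494), which encodes seipin. By clone, 3 rose and 1 fell in F5, 4 and 1 in G5, and 2 and 2 in H7. Over all genes, 6.88% rose and 7.37% fell in F5, 6.54% and 6.56% in G5, and 9.64% and 9.92% in H7.

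Of 18 genes of lipolysis and fatty acid uptake, 12 were tested, 2 rose and 2 fell (median 0.01), against 8.55% and 10.5% of all genes. Cd36 and Gpihbp1, a fatty acid transporter and the anchor of lipoprotein lipase on capillaries, had 0 counts throughout. Vldlr, a receptor that brings in triglyceride-rich lipoproteins, rose from 5.23, 3.79 and 3.69 CPM to 17.4 to 23.1 in F5 (2.23, SE 0.19, adjusted p = 5.93e-05) and 17.5 to 23.4 in G5 (2.22, SE 0.19, adjusted p = 5.65e-05), and lay at 2.36 to 3.46 CPM in H7, under every parental library and not called. Angptl4, a secreted inhibitor of lipoprotein lipase, fell in F5 (−0.88, adjusted p = 0.0117) and G5 (−1.05, adjusted p = 0.00524), and was not called in H7. For the mean it was −0.66 (adjusted p = 0.0121), or −0.46 and not called without the parental library of passage 7 (adjusted p = 0.0671). Slc27a4, a fatty acid transporter with acyl-CoA synthetase activity, fell by 0.33 (SE 0.06, adjusted p = 0.00294). Sel1l, needed for lipoprotein lipase to leave the endoplasmic reticulum and named after its values were seen, rose by 0.31 (adjusted p = 0.0448). With the 9 knockout libraries as 1 group, Plin4, Retn, Agpat2, Lpin3, Vldlr and Angptl4 were not called for the mean.

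Fabp4 lies in a cluster of fatty acid binding protein genes on chromosome 3. Of the 4 neighbours listed, Fabp5, Fabp9, Fabp12 and Pmp2, only Fabp5 passed the filter. Fabp5, a fatty acid carrier of many cell types (chr3:10012548-10016607, plus strand), was at 41.4, 27.5 and 45.5 CPM in the parental libraries and between 49.9 and 59.3 CPM in the 9 clone libraries. It rose by 0.57 in the mean (SE 0.12, adjusted p = 0.00791), by 0.58 in F5, 0.50 in G5 and 0.63 in H7, each called. The parental library of passage 7 was the lowest of the 12, and leaving out 1 library at a time gave 0.38 to 0.72 for the mean.

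**Figure D4:**
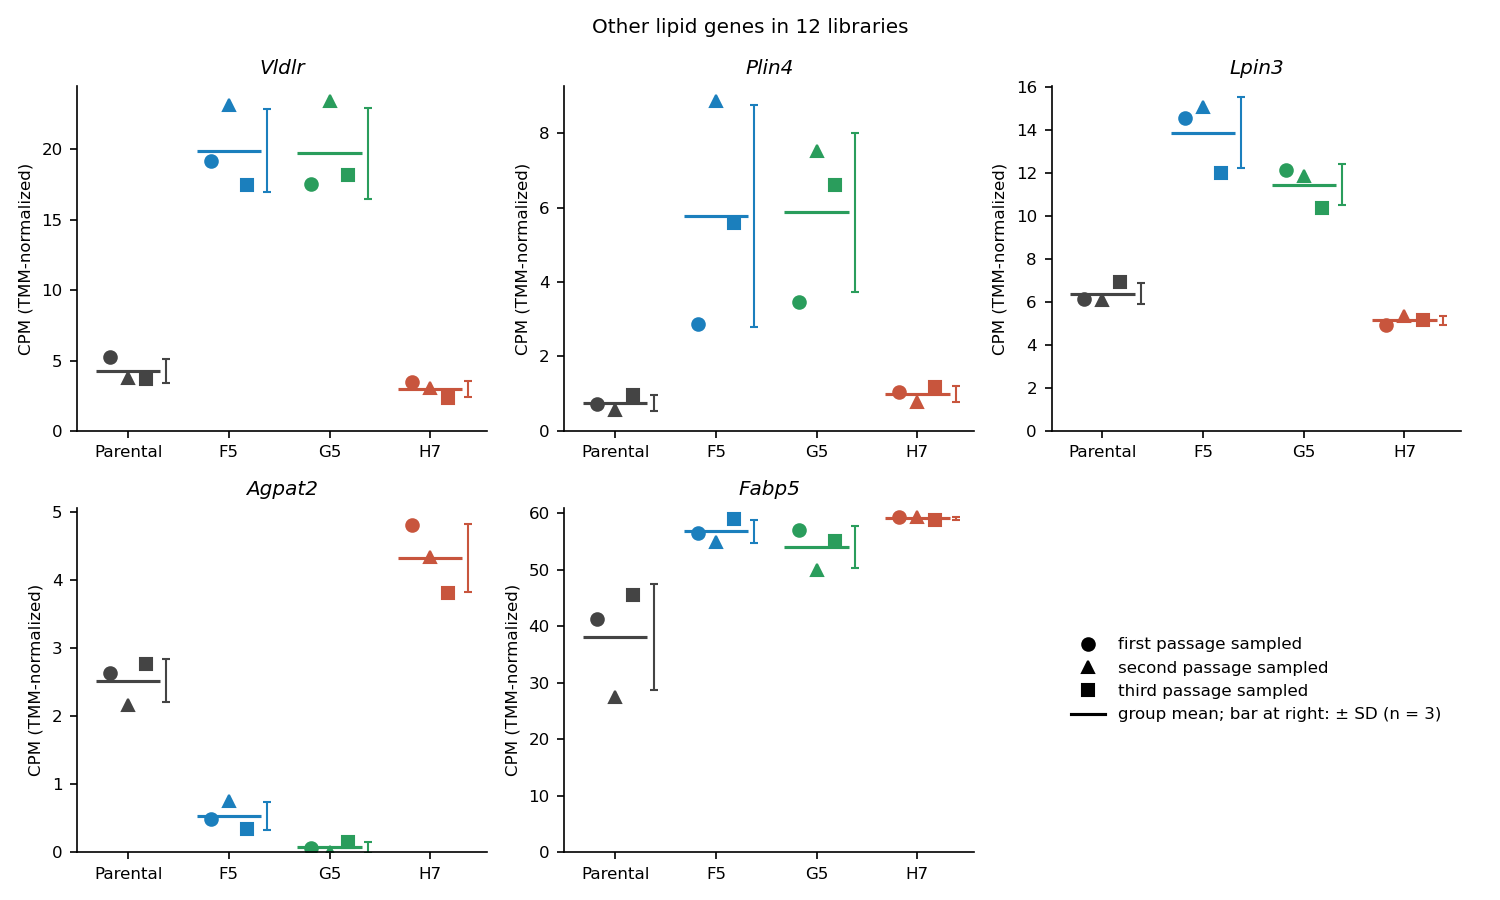
CPM of 5 other lipid genes in each library, with symbols for the passage sampled, lines for the group mean and bars for ± SD (n = 3). F5 and G5 differ from the parental line for Vldlr, Plin4, Lpin3 and Agpat2 where H7 does not follow them, while Fabp5 is above the parental libraries in all 3 clones.

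The clones were also compared with each other, which tests the difference between their changes directly. None of the 5 expressed genes was called between F5 and G5, where 0.258% of all genes were, between F5 and H7 (17.9% of all genes) or between G5 and H7 (17.4%). Only Cebpd in F5 against H7 was under 0.05 before adjustment (log2 difference −1.39, 95% interval −2.70 to −0.09), and its adjusted p by edgeR was 0.137. With the order of passages as a term in the fit, Cebpd was called lower than in H7 both in F5 (−1.54, adjusted p = 1.19e-04, with 15.7% of all genes called lower) and in G5 (−1.17, adjusted p = 5.99e-04, with 15%). Cebpd was also called without the second passages, in F5 (−1.80, adjusted p = 0.0139, with 10.8%) and in G5 (−1.52, adjusted p = 0.0266, with 10%). In that fit Lpl was called lower than in H7 as well, in F5 (−0.62, adjusted p = 0.00456) and in G5 (−1.01, adjusted p = 5.56e-04). For G5 against H7, Lpl was called in 4 of 22 alternatives. DESeq2 called none of the 5 in any of these pairs. Over all genes, 51% of the calls between G5 and H7 were higher in G5 by edgeR, and 64.5% and 65.2% by limma on log2(TPM + 1) and log2(TPM + 0.1). Between F5 and G5 the share higher in F5 was 73.7% by edgeR, 56.5% and 69% by the limma fits and 56.9% by DESeq2. For Plin2 the differences were 0.11 between F5 and G5 (95% interval −0.08 to 0.31), 0.12 between F5 and H7 (−0.07 to 0.32) and 0.01 between G5 and H7 (−0.18 to 0.20). The list genes Vldlr, Plin4, Lpin3 and Agpat2, in contrast, differed between H7 and each of the other clones.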

How the data were processed

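The 12 libraries are stranded paired-end total RNA, per the labels' protocols. Estimated counts, as deposited by the authors, cover 48795 Ensembl genes, and the same genes stand in TPM in another deposited table, whose columns sum to 1000000. Values above 0.5 in the counts were whole to within 0.01 in 86.9% of cases; they were rounded before testing. The build is GRCm38, per the submitters' processing notes. Not given in the sources used here were the aligner, the counter, the annotation and any use of strand, so reads of overlapping or antisense genes may not be told apart. Symbols and coordinates (counted from 1) come from GENCODE M21 on GRCm38, which named 48435 of the IDs.

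Groups and passages were taken from the labels. Genes were tested by the quasi-likelihood F-test of edgeR with TMM factors, filterByExpr on the 4 groups and group as the only term, with all 12 libraries in 1 fit (8 residual degrees of freedom, biological coefficient of variation 15.5%). Benjamini-Hochberg adjustment ran over the 14704 genes tested. Standard errors came from the F statistic. Exact Poisson intervals, ratios of summed counts with exact intervals, and the limit of 3 counts were used for genes under the filter. Correlations used log2 CPM with a prior count of 2. The fitting script was tested on simulated data. The tools were edgeR 4.0.16, DESeq2 1.42.0 and limma 3.58.1 in R 4.3.3, and Python 3.11.15.

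The 10 genes and the lists were chosen with earlier results of these data known. Besides Aebp1 and the 10 genes, the rule named for each list the up to 3 genes whose mean over the clones had the smallest adjusted p, and the 3 genes most like Cebpd; genes outside the rule are marked where they stand. The 7 lists of genes and 5 marker lists are described with their counts. Alternatives were other size factors, DESeq2, other filters, limma on TPM, subsets of libraries and passage blocks.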

Additional observations from a re-analysis of the deposited data

Results flagged for a closer look

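Several lipid and adipogenic list genes differed between clones by edgeR's test of the difference itself (all 12 libraries, Benjamini-Hochberg), and each is given as the log2 difference. F5 against H7 had 2 higher and 3 lower of 18 triglyceride and droplet genes, and 2 and 2 of 12 lipolysis and uptake genes. It was 1 and 0 of 3 fat-cell markers, 0 and 2 of 22 promoting and 2 and 1 of 20 opposing regulators. In G5 against H7 the lists in turn gave 3 and 2, 2 and 2, 1 and 0, 1 and 2, and 3 and 1. Over all tested genes, 17.9% were called between F5 and H7 and 17.4% between G5 and H7, in either direction. Vldlr was higher in F5 than in H7 by 2.75 (adjusted p = 7.32e-06) and in G5 than in H7 by 2.73 (adjusted p = 5.03e-06). Plin4 was higher by 2.54 in F5 (adjusted p = 0.00206) and by 2.55 in G5 (adjusted p = 0.00197). Lpin3 was higher by 1.43 in F5 (adjusted p = 1.81e-05) and by 1.16 in G5 (adjusted p = 6.86e-05). Agpat2 stood at −2.99 in F5 (adjusted p = 2.16e-04) and −5.69 in G5 (adjusted p = 1.51e-05), with 46 and 6 counts over the 3 libraries of these clones and 336 in H7. Angptl4 stood at −0.86 in F5 (adjusted p = 0.0104) and −1.02 in G5 (adjusted p = 0.00392) against H7. In these 5 genes, given here because they differed from H7, F5 and G5 lay on the same side of H7. Between F5 and G5 only 0.258% of all tested genes were called, so this side is not particular to them. Neither Plin2 nor Pnpla2 was called between any of the clones.

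Nr2f1 fell in every clone, and the remaining level in F5 was above that in H7 by 0.58 (adjusted p = 0.00322), as in G5 by 0.61 (adjusted p = 0.00248). Gata2 was higher in F5 than in H7 by 0.26 (adjusted p = 0.0424) and in G5 than in H7 by 0.27 (adjusted p = 0.0402). Over the 782 expressed genes of chromosome 6, where Gata2 lies, the median log2 fold change was 0.07 in F5, 0.09 in G5 and −0.22 in H7, and the part of that shift in the Gata2 difference was not tested. Cebpg stood at −0.38 in F5 (adjusted p = 0.00554) and −0.29 in G5 (adjusted p = 0.021) against H7.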

How the results depend on the processing

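For the mean of the clones, Aebp1, Plin2, Prdm16, Rxra, Tle3, Nr2f1, Gata2, Trib3, Cav1, Slc27a4 and Fabp5 were called in all 22 alternatives with the direction reported, and Plin2 ranged from 0.68 to 0.75 on the log2 scale. Pnpla2 was called in 20 of 22 (0.24 to 0.41, adjusted p = 0.00422 to 0.106), Cebpb in 3 (−0.59 to −0.24), Cebpd in 1 (−1.42 to −0.36) and Lpl in 1 (−0.61 to 0.64). Lpl was reversed to 0.43 without the second passages. Of the 10 genes, called higher in F5 were 2 in place of 1 with DESeq2, with a mean of at least 1 CPM, with either limma fit and when blocking on the order of passages, Pnpla2 being the one added. Over all genes that block called 2024 of 14704 higher in F5, in place of 1012. Called higher in G5 and in H7 was 1 in place of 2 without the filter and with only the 6 libraries compared, where 1 was also lower in G5 than in H7. With only the 6 libraries, calls higher over all genes were 304 of 14122 in G5 and 840 of 14167 in H7. The cause was not tested. Without the second passages, 1 was called lower for the mean, 2 in F5 and 1 in G5, 1 was higher in G5, and against H7, 2 were lower in F5 and 2 in G5. Leaving out 1 library at a time gave 1 to 2 higher and 0 to 1 lower for the mean, 1 to 1 higher in F5, 1 to 2 higher and 0 to 1 lower in G5, 1 to 2 higher in H7, and 0 to 1 lower in G5 than in H7. An arm then holds 2 libraries. Over all genes these fits called 955 to 1202 higher and 1067 to 1554 lower for the mean. They called 635 to 1045 higher in F5, 570 to 959 higher and 496 to 1085 lower in G5, and 916 to 1436 higher in H7. Deviations of same-numbered libraries correlated at −0.53 to 0.50 (9 of 15 pairs over 0.1), and libraries of the same order at 0.04 to 0.50 (16 of 18 pairs). Between clones, number and order coincide, and these pairs, at 0.15 to 0.50, stand in both sets. Pairs of the parental line with a clone were at −0.53 to −0.19 by number and at 0.04 to 0.50 by order. With the passage number as a replicate block the count for the mean was 2 higher and 0 lower. With the order of passages as a replicate block it was 2 higher and 2 lower (Cebpb −0.45, Cebpd −0.87), with 2 lower in F5, 2 in G5, 1 in H7, 1 in F5 against H7 and 2 in G5 against H7. Over all genes, calls for the mean were 1257 higher and 1543 lower, 2288 and 2620 with the order block, 668 and 688 with the 9 knockout libraries as 1 group, and 963 or 980 lower by limma. Calls ranged over the alternatives from 401 to 2024 higher and 366 to 2202 lower in F5 (1012 and 1084), 304 to 1924 and 277 to 2024 in G5 (961 and 965), 840 to 2350 and 721 to 2458 in H7 (1418 and 1459), 13 to 58 and 5 to 44 in F5 against G5 (28 and 10), 927 to 2300 and 767 to 2303 in F5 against H7 (1389 and 1249), and 919 to 2154 and 817 to 2202 in G5 against H7 (1305 and 1252). The mean has no fit on 6 libraries, and the single knockout group gives the mean only. Another 39 values of genes not called changed sign. Depth limits Pparg, Zfp423, Klf15 and Fabp4, whose counting intervals span several fold.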

Other observations

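Other lipid and adipogenic genes that were highest in the second passage of all 4 groups, as were 13.2% of all tested genes, are given here as values; they were named after their values were seen. They were 2 of the 22 regulators that promote fat-cell formation, Klf9 and Zfp467. Zfp467, a zinc-finger factor, was at 4.35 times the mean of the other passages in the parental line (10.3 against 2.37 CPM), 2.23 times in F5, 2.31 times in G5 and 1.47 times in H7. Among the 12 genes of lipolysis and uptake it was 3, Lipa, the lysosomal acid lipase (1.07 to 1.47 times), Sel1l (1.07 to 1.28 times) and Slc27a1, a fatty acid transporter (2.58 times in the parental line and 1.16 to 1.42 times in the clones). Plin3 and Acsl1 did so among 18 genes of triglyceride synthesis and the droplet coat, and Wnt10b and Ncor1 among 20 opposing regulators. Of the 8 fibroblast markers, 2 were highest there as well, Pdgfra (1.49 to 3.66 times) and Thy1 (1.38 to 1.63 times). In the other direction, the second-passage level of Sox9, an opposing regulator, was 0.585 to 0.662 times that of the other passages in all 4 groups, and that of Hes1, the Notch target, was 0.233 times in the parental line and 0.853 times in H7. The fibroblast markers Vim (0.723 to 0.892 times) and S100a4 (0.822 to 0.931 times) were also lower there in all 4 groups. The rest of the fibroblast markers differed in direction between groups.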
